A study of Mus musculus with 27 samples.

Results

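The genes described here encode band 3 and the peripheral proteins of the red cell membrane skeleton. They were chosen by name and are *Slc4a1* (band 3), *Epb4.2* (protein 4.2), *Ank1* (ankyrin-1), *Epb4.1* (protein 4.1R), *Epb4.9* (dematin), *Tmod1* (tropomodulin-1) and the adducin genes *Add1*, *Add2* and *Add3*. All 9 were found among the 14558 gene rows listed in every one of the 5 RNA-Seq tables, 8 under these symbols and *Epb4.9* under its other symbol, *Dmtn*.

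The RNA came from MEL cells, a mouse erythroleukaemia line of transformed erythroid progenitors (clone C88 according to the study's methods), and all groups are cultures of this line. The study depleted the corepressor ETO2 (*Cbfa2t3*; 2 control, 2 sh2 and 2 sh3 libraries), IRF2BP2 (*Irf2bp2*; 2 control and 2 sh1 libraries) or the histone demethylase LSD1 (*Kdm1a*; 1 control and 2 KD libraries) with shRNAs for 72 h, and *Gfi1b*, the gene of a transcriptional repressor, with siRNAs (2 control and 2 KD libraries). Controls, labelled WT, received non-targeting shRNA or siRNA. A further table compares 2 libraries of non-induced cells with 2 libraries of cells induced to differentiate for 96 h. The study's methods name 2 *Gfi1b* siRNAs and 2 harvest times, but which of them each *Gfi1b* library had was not given. The inducing agent was not given in the sources used here either. A list of ETO2 and IRF2BP2 binding sites from ChIP-Seq in MEL cells accompanies the tables.

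Band 3 is the anion exchanger of the red cell membrane and the most abundant protein in it. It is tied to the spectrin network through ankyrin-1 and protein 4.2, while protein 4.1R, dematin, tropomodulin and the adducins sit at the junctions where spectrin tails meet short actin filaments, adducin and tropomodulin capping opposite ends of those filaments. Inherited defects of band 3, ankyrin or protein 4.2 weaken the membrane and cause spherocytosis, and these proteins accumulate late in erythroid maturation. α-adducin (*Add1*) pairs with β-adducin (*Add2*) in the mature red cell, and γ-adducin (*Add3*) is the partner found in most other tissues.

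ETO2 and IRF2BP2 sites were found at every one of these genes. Of the 13229 sites of the deposited list, 34 had one of the 9 as the single nearest protein-coding gene within 1 Mb, and 15 of the 34 were shared by ETO2 and IRF2BP2, 16 were bound by IRF2BP2 only and 3 by ETO2 only. All 9 genes had a shared site, against 9.16% of the 22380 protein-coding genes of the mm9 annotation and 13.9% of the 11343 of them that were tested in an RNA-Seq table. A site of any class lay at all 9 genes, against 29.1% of the annotated and 44.4% of the tested genes. Sites of IRF2BP2 only were nearest to 7 of the genes (22.9% of annotated and 36.2% of tested genes) and sites of ETO2 only to 3 (6.64% of annotated and 9.42% of tested genes). The list has no replicates, so these shares are given without a test.

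The sites lay at different distances from the transcription start sites (TSSs). *Add2* (chr6:86028078-86069549, plus strand) had a shared site 0.103 kb upstream of its TSS (chr6:86027611-86028192) with an enrichment over IgG of 53.0-fold, a value that 0.544% of all sites reached, whereas the median over the shared sites was 10.25-fold and over all sites 7.33-fold. The shared site of *Epb4.2* (chr2:120843627-120862808, minus strand) had its centre 1 bp inside the first exon (chr2:120862123-120863077), with a lower enrichment of 4.46-fold. *Slc4a1* (chr11:102210138-102227517, minus strand) had no site of a single factor, and its shared sites lay 9.16 kb upstream (14.3-fold) and 2.45 kb inside the gene in an intron (14.0-fold). The *Epb4.1* gene (chr4:131479328-131631236, minus strand) carried shared sites 2.35 and 1.65 kb upstream, with 20.2-fold and 20.5-fold enrichment. *Tmod1* (chr4:46051807-46128904, plus strand) had shared sites 15.6 kb upstream (11.4-fold) and 1.92 kb downstream of the TSS in an intron (9.29-fold). Those of *Add1* (chr5:34916313-34974957, plus strand) lay 0.294 kb upstream (6.0-fold) and 8.49 kb downstream of the TSS in an intron (7.20-fold).

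The sites of the other 3 genes were intronic or distal. The 6 sites of *Ank1* (chr8:24085316-24260969, plus strand) fell in introns between 53.2 and 79.3 kb from the TSS, and the shared one among them lay at 60.2 kb (9.0-fold). *Epb4.9* (chr14:71001070-71035785, minus strand) had 3 intronic sites, 1 of each class, within 14.1 kb of the TSS. *Add3* (chr19:53214935-53321889, plus strand) had the most sites, 7, of which the shared one lay 45.3 kb downstream of the TSS in an intron (23.8-fold). With sites at or above the median enrichment only, 12 sites at 7 of the genes remained (18.8% of annotated genes), and 6 genes then had a shared site (6.97%).

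**Figure D1:**
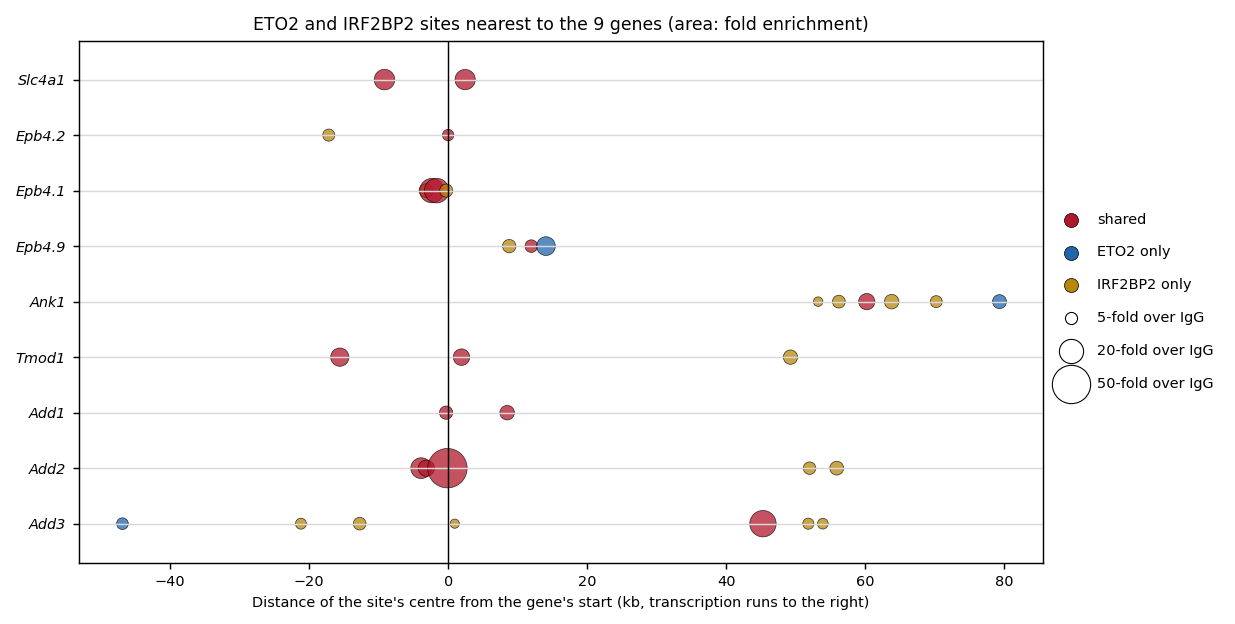
Sites of ETO2 and IRF2BP2 at the 9 genes, drawn by the distance of the site centre from the TSS in kb (x axis, positive values inside or downstream of the gene), 1 gene per line, with the class by colour and the fold enrichment over IgG by the area of the point. The *Add2* site 0.103 kb upstream of the TSS (53.0-fold) is the largest point, and the sites of *Ank1* lie between 53.2 and 79.3 kb.

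The sequence at the centre of a shared site is shown for 6 genes, because the LDB1 complex that ETO2 joins binds DNA through GATA1 and TAL1, which recognise GATA words and E-boxes. Each stretch is 81 bases of the mm9 plus strand, 40 on either side of the deposited centre, and for each gene the shared site of the highest enrichment with a GATA word in that stretch was taken. The shared sites of *Epb4.1*, *Ank1* and *Add3* had no GATA word within these 81 bases, and their stretches are not shown. Capitals mark the words AGATAA or else AGATAG, and likewise TGATAA or else TGATAG, on either strand, and CTG (or CAG on the other strand) where it stands 7 to 9 bases before such a word, the composite E-box/GATA motif.
Slc4a1 chr11:102225030-102225110: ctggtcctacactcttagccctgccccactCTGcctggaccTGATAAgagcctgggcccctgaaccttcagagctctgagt
Epb4.2 chr2:120862767-120862847: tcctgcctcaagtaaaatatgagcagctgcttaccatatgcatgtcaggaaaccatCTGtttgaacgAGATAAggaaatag
Epb4.9 chr14:71023784-71023864: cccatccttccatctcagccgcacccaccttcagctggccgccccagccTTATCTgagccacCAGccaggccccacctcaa
Tmod1 chr4:46036188-46036268: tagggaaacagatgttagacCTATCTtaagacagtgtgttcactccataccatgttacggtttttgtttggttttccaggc
Add1 chr5:34924763-34924843: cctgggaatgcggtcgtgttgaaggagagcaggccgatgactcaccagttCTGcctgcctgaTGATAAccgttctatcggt
Add2 chr6:86027935-86028015: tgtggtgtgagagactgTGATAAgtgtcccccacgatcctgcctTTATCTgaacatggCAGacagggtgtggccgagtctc

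The stretches of *Slc4a1*, *Epb4.2*, *Epb4.9*, *Add1* and *Add2* hold the composite motif, and that of *Add2* holds a further GATA word on the other strand. In windows of 151 bases, a GATA word was present in 10 of the 15 shared sites at these genes (66.7%) and the composite motif in 7 (46.7%). The same windows held a GATA word in 87.1% and the composite motif in 33.0% of all 2730 shared sites, and in 54.5% and 15.0% of all sites of the list. With a spacer of 6 to 8 bases, the spacing of the composite motif in the study, the motif was in 5 of the 15 shared sites at these genes (33.3%), in 29.2% of all shared sites and in 13.6% of all sites, and the stretch of *Add1* did not hold it. This second spacing was tried after the first had been seen. The stretches were chosen for a GATA word where one was present, and a match is a description of the letters in a window.

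The depleted genes were examined first as a check of the labels, in CPM (counts scaled by the TMM library size). *Cbfa2t3* stood at 400.3 and 427 CPM in the controls, 202 and 244 with sh2 and 123 and 145 with sh3. *Irf2bp2* was at 116 and 119.7 CPM in its controls and 92.2 and 94.9 in its KD, a log2 change of -0.33 ± 0.08 (SE) that is smaller than the limit of 0.5 used here. *Kdm1a* stood at 152 CPM in the control and 16.9 and 16.3 in the KD. *Gfi1b* was at 122 and 145 CPM in its controls, at 76.5 CPM in KD replicate 2, but at 216 CPM in the library labelled *Gfi1b* KD replicate 1, which goes against its label. That table is therefore given by library below.

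Between 44519414 and 57684583 reads were counted in each of the 13 shRNA libraries and between 9929311 and 19623105 in each of the 8 others, so that 3 counts correspond to 0.0519 to 0.0676 CPM in the former and 0.149 to 0.302 CPM in the latter. Erythroid marker genes (*Gata1*, *Klf1*, *Alas2* and others, 10 in the list) summed to between 1208 and 4895 CPM in the 21 libraries and megakaryocyte markers (6 genes) to between 176 and 1299 CPM, whereas the myeloid markers summed to at most 3.84, the lymphoid to at most 1.53 and the fibroblast markers to at most 1.24 CPM. *Hba-a1* was at most at 1.76 CPM and *Hbb-b1* at most at 0.0387 CPM, adult globin genes with near-identical copies between which reads can be split, so that these globins do not show in the sum. In the authors' RPKM *Hba-a1* stood at 17.1 and 0 in non-induced and 512 and 504 in induced cells, on 1 and 0 against 22 and 22 counts, and at 582 in the library labelled *Gfi1b* KD replicate 1, on 33 counts. The summed erythroid markers went with the genes described here, and their part in the results was not tested. They were at 1599 and 1607 CPM in the *Cbfa2t3* controls against 2213 to 2604 in the KD, at 1307 and 1385 against 3506 and 3762 for *Irf2bp2*, at 1667 against 1208 and 1216 for *Kdm1a*, and at 2047 and 1950 against 4895 and 4260 in induction. Of the erythroid markers tested, leaving out *Hba-a1*, which passed the filter through the treated libraries, 5 of 8, 8 of 8 and 6 of 8 rose in *Cbfa2t3* KD, *Irf2bp2* KD and induction, and 3 of 8 fell in *Kdm1a* KD. Of all genes tested, 2.99%, 10.1% and 12.4% rose in the same 3 comparisons. In *Kdm1a* KD 10.1% fell and 12.4% rose. Of the megakaryocyte markers, 2 of 6 rose in *Cbfa2t3* KD and 6 of 6 in *Irf2bp2* KD. In induction 1 of 4 rose, leaving out *Ppbp* and *Gp1bb*, which passed the filter through the non-induced libraries. *Ppbp* was at a mean of 4.97 CPM in non-induced and 0.141 CPM in induced cells. In *Kdm1a* KD *Ppbp* rose (2.81) and *Gp1bb* fell (-0.97). The single tested myeloid and fibroblast markers also rose in *Kdm1a* KD, at low levels, *Cd68* (1.43 to 2.90 CPM between the group means, log2 change 1.02) and *Col1a1* (0.429 to 0.950 CPM, 1.15). The lymphoid marker *Cd79a*, which passed the filter through the KD libraries, had means of 0.164 and 0.587 CPM, and their part in the results was not tested. In RNA of whole cultures, a larger share of maturing cells and more RNA per cell cannot be told apart. The libraries of 1 group are described by the study as biological replicates, and with at most 2 of them per group p-values measure the spread between those libraries.

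**Figure D2:**
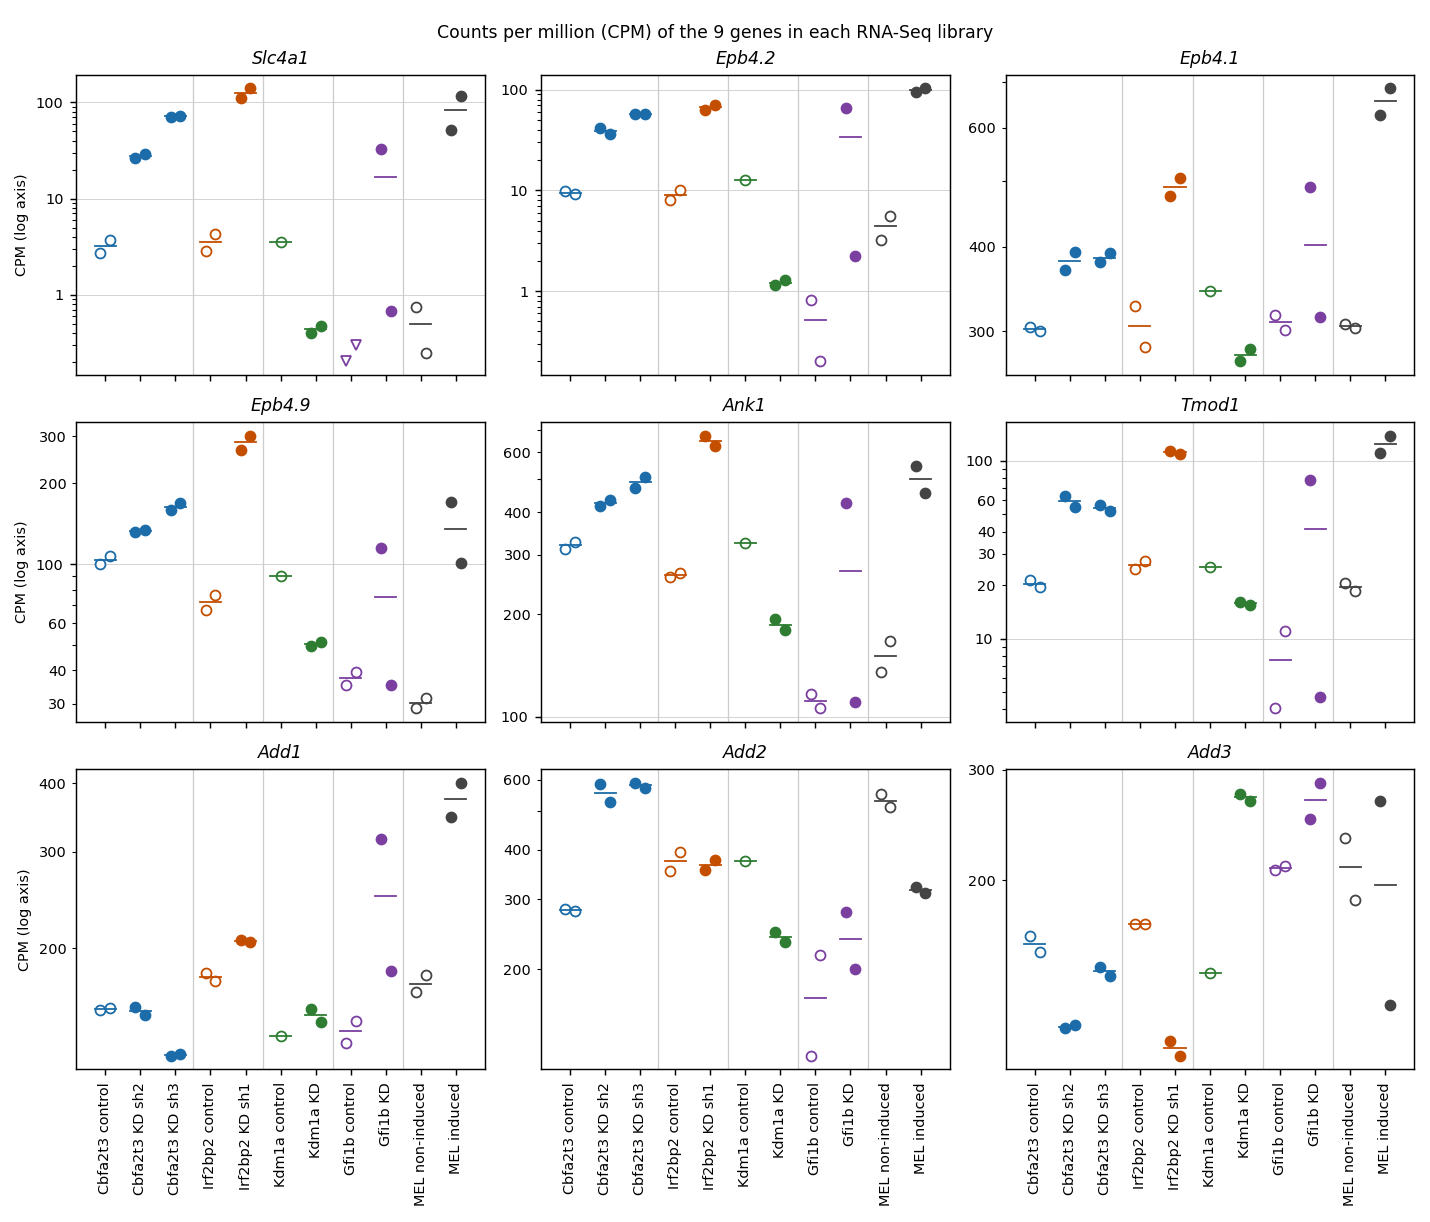
Level of each of the 9 genes in every library (1 panel per gene, y axis in CPM on a log scale, x axis the 11 groups). Open circles are control or non-induced libraries, filled circles KD or induced libraries, bars group means, and open triangles libraries without a count, drawn at the level of 3 counts. *Slc4a1* and *Epb4.2* cover the widest range, from 0 to 139.7 CPM and from 0.202 to 104 CPM.

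Differentiation of MEL cells shows how these genes behave when the line matures. Apart from *Slc4a1*, 6 of the 8 other genes rose in the induced cells and 1 fell, while 12.4% of the 11713 genes tested rose and 14.8% fell, and the median log2 change was 1.42 over the 8 and -0.02 over all genes. *Slc4a1* stood at 0.747 and 0.252 CPM before induction (15 and 3 counts) and at 51.5 and 115 CPM after it (745 and 1625 counts). With 1 of the 2 non-induced libraries past the filter on low counts (0.70 CPM in 2 libraries), it entered the fit through the induced libraries, and its fitted log2 change of 7.23 is given without a test. That value was 8.30 without non-induced replicate 1 and 6.56 without induced replicate 2. *Epb4.2* went from 3.19 and 5.63 CPM to 94.4 and 104 CPM, a log2 change of 4.51 ± 0.33 (adjusted p = 1.26e-06, by the quasi-likelihood test of edgeR, Benjamini-Hochberg adjusted over all genes, as throughout).

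The skeleton genes, already at higher counts, rose less. *Tmod1*, which caps the pointed ends of the actin filaments, went from 20.7 and 18.5 to 111 and 139 CPM, and *Epb4.9*, which bundles them, from 28.8 and 31.5 to 171 and 101 CPM, the induced replicates differing from each other. *Ank1* rose from 136 and 167 to 548 and 456 CPM and *Epb4.1* from 308 and 303 to 626 and 686 CPM. Induced libraries lay above non-induced ones for each of the 4, as for 32.8% of the genes tested, and their log2 changes were 2.67 ± 0.26, 2.17 ± 0.29, 1.73 ± 0.25 and 1.10 ± 0.23 (adjusted p of 1.85e-05, 0.000197, 0.000349 and 0.00395).

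The adducin genes went in different directions in induction. *Add1* rose from 166 and 179 to 347 and 401 CPM (log2 change 1.12 ± 0.24, adjusted p = 0.00412). *Add2* fell from 551 and 511 to 322 and 311 CPM (-0.75 ± 0.23, adjusted p = 0.0281). The call was lost when any 1 of the 4 libraries was left out, with log2 changes between -0.80 and -0.70. *Add3* was at 234 and 186 CPM before and 267 and 127 CPM after induction, so that the induced replicates lay on either side of the non-induced ones (-0.09 ± 0.31, adjusted p = 0.855).

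In *Cbfa2t3* KD, 6 of the 9 genes rose and none fell, against 2.99% of the 12537 genes tested that rose and 2.75% that fell. The median log2 change was 0.52 over the 9 and 0.00 over all genes. *Slc4a1* stood at 2.75 and 3.70 CPM in the controls, 26.1 and 28.8 with sh2 and 70.6 and 72.1 with sh3. *Epb4.2*, whose protein binds band 3, was at 9.81 and 9.24 CPM in the controls, 41.5 and 36.6 with sh2 and 57.4 and 57.5 with sh3. Every KD library lay above both controls for both genes, as for 19.1% of the genes tested. The log2 changes over both hairpins were 3.93 ± 0.53 (adjusted p = 0.00231) and 2.34 ± 0.21 (adjusted p = 0.000312), and without control replicate 1 that of *Slc4a1* was 3.73 with an adjusted p of 0.0552. With sh2 alone it was 3.08.

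Among the junctional genes, *Tmod1* went from 21.3 and 19.4 CPM to between 52.3 and 63.3 CPM in the 4 KD libraries (1.48 ± 0.09, adjusted p = 6.82e-05). *Add2* rose 2.01-fold, from 284 and 280.1 CPM to between 527 and 589 CPM (1.01 ± 0.06, adjusted p = 6.82e-05), whereas *Add1* was at 155 and 155 CPM in the controls and 127 to 156 CPM in the KD (-0.14 ± 0.09, adjusted p = 0.386). *Add3* had 163 and 154 CPM in the controls and 117 to 145 CPM in the KD, with a change of -0.29 ± 0.10 that did not pass (adjusted p = 0.105). Of the 3 adducin genes, *Add2* was thus the one that passed the test.

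*Epb4.9* and *Ank1* were just past the fold limit. *Epb4.9* stood at 100.3 and 107 CPM in the controls, 131 and 134 with sh2 and 159 and 168 with sh3 (0.51 ± 0.11, adjusted p = 0.0165), and *Ank1* at 312 and 327, 418 and 433, and 473 and 509 CPM (0.52 ± 0.08, adjusted p = 0.00525). Both calls were lost without either control (log2 changes of 0.46 and 0.56 with adjusted p of 0.201 and 0.112 for *Epb4.9*, 0.48 and 0.56 with 0.0984 and 0.0558 for *Ank1*). Without sh3 replicate 1 the change of *Epb4.9* was 0.47, without sh3 replicate 2 those of *Epb4.9* and *Ank1* were 0.44 and 0.46, and with sh2 alone their changes of 0.35 and 0.41 were under the limit of 0.5. *Epb4.1* passed the p limit with a change below the fold limit (305 and 301 CPM against 369 to 393 CPM, 0.34 ± 0.05, adjusted p = 0.00478).

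The hairpins allow a comparison within the KD, since *Cbfa2t3* itself was lower with sh3 than with sh2 (log2 difference -0.73 ± 0.10, adjusted p = 0.000752). *Slc4a1* and *Epb4.2* were higher with sh3 than with sh2, by 1.38 ± 0.09 (adjusted p = 1.14e-05) and 0.56 ± 0.08 (adjusted p = 0.000926), while 1.92% of the genes tested were higher and 1.79% lower. Without sh2 replicate 2 the difference for *Epb4.2* was 0.47, below the limit. *Add3*, *Epb4.9* and *Ank1* were higher with sh3 by 0.29, 0.30 and 0.21 and *Add1* lower by 0.27, on the log2 scale, all with an adjusted p under the limit and a difference below the fold limit. *Tmod1*, *Epb4.1* and *Add2* did not pass the test (-0.12 ± 0.08, 0.02 ± 0.06 and 0.06 ± 0.06, adjusted p of 0.376, 0.896 and 0.56), the log2 rises of *Tmod1* and *Add2* over the controls being 1.48 and 1.01.

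**Figure D3:**
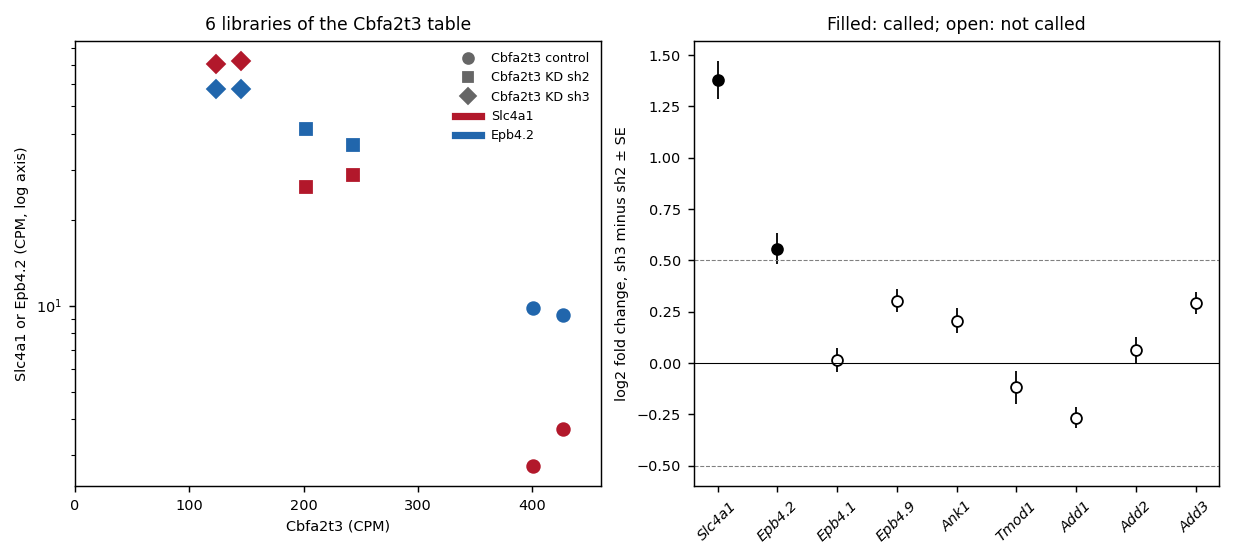
Left, *Slc4a1* and *Epb4.2* (y axis, CPM) against *Cbfa2t3* (x axis, CPM) in the 6 libraries of that table. Right, log2 difference between sh3 and sh2 for the 9 genes with its SE, where *Slc4a1* (1.38) and *Epb4.2* (0.56) are past the fold limit of 0.5.

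In *Irf2bp2* KD, 6 of the 9 genes rose and 1 fell. Of all 12329 genes tested, 10.1% rose and 12.5% fell, and the median log2 change was 1.31 over the 9 and -0.01 over all genes. *Slc4a1* went from 2.85 and 4.3 CPM to 111 and 139.7 CPM (5.13 ± 0.15, adjusted p = 1.24e-12), and *Epb4.2* from 8.0 and 10.2 to 63.4 and 70.8 CPM (2.88 ± 0.11, adjusted p = 9.18e-12). *Ank1* rose from 258 and 265 to 672 and 625 CPM (1.31 ± 0.09, adjusted p = 4.26e-09). All 3 genes of the link between band 3 and the skeleton thus rose. For each of them both KD libraries lay above both controls, as for 36.7% of the genes tested.

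At the junctional complex, *Tmod1* rose from 24.5 and 27.5 to 114 and 109.8 CPM (2.10 ± 0.09, adjusted p = 1.75e-11) and *Epb4.9* from 67.2 and 76.8 to 267 and 302 CPM (1.98 ± 0.10, adjusted p = 8.95e-11). *Epb4.1* rose less, from 327 and 284 to 476 and 506 CPM (0.68 ± 0.09, adjusted p = 1.47e-05). *Add3* fell from 170.3 and 170.3 to 111 and 105 CPM (-0.66 ± 0.08, adjusted p = 5.44e-06). The other adducins stayed near their controls: *Add2* was at 354 and 394 CPM in the controls and 355 and 376 in the KD (-0.03 ± 0.09, adjusted p = 0.785), and *Add1* at 180.0 and 174 against 207 and 205 CPM (0.22 ± 0.08, adjusted p = 0.0357, below the fold limit).

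*Kdm1a* KD went the other way. Of the 9 genes 6 fell and 1 rose, against 10.1% of the 12628 genes tested that fell and 12.4% that rose, with a median log2 change of -0.68 over the 9 and 0.00 over all genes. *Epb4.2* went from 12.6 CPM in the control to 1.14 and 1.29 CPM (-3.38 ± 0.16, adjusted p = 1.97e-13) and *Slc4a1* from 3.56 to 0.406 and 0.481 CPM, or from 174 counts to 22 in each KD library (-3.01 ± 0.26, adjusted p = 3.18e-09). In these cells the 2 genes, low already in the control, were lowered 10.4-fold and 8.03-fold. There was 1 control library, which was assumed to vary like the KD libraries.

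*Ank1* fell from 325 to 194 and 179.7 CPM (-0.80 ± 0.08, adjusted p = 1.23e-08), *Epb4.9* from 90.3 to 49.6 and 51.1 CPM (-0.84 ± 0.08, adjusted p = 5.55e-09) and *Tmod1* from 25.3 to 16.2 and 15.4 CPM (-0.68 ± 0.09, adjusted p = 3.29e-06). *Epb4.1* was at 345 CPM in the control and 271 and 282 in the KD, below the fold limit (-0.32 ± 0.08, adjusted p = 0.00146). The adducins moved in opposite directions: *Add2* fell from 375 to 249 and 234 CPM (-0.64 ± 0.08, adjusted p = 3.7e-07), *Add3* rose from 143 to 275 and 267 CPM (0.93 ± 0.08, adjusted p = 2.26e-09), and *Add1* was at 138 CPM in the control and 155 and 147 in the KD (0.13 ± 0.08, adjusted p = 0.177). *Add3* was the single gene of the 9 that rose.

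**Figure D4:**
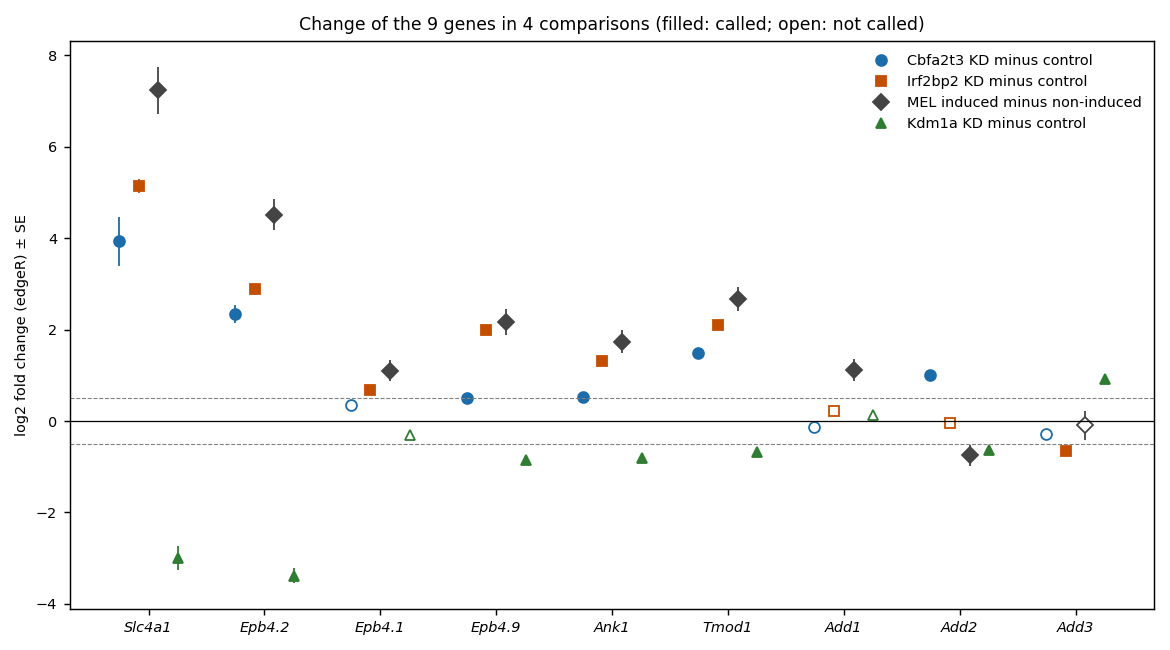
Log2 change of the 9 genes (x axis, with SE) in *Cbfa2t3* KD, *Irf2bp2* KD, *Kdm1a* KD and MEL induction. Filled points passed both limits, and dashed lines mark the fold limit of 0.5. *Slc4a1* in induction entered through the induced libraries, so that its filled point is not to be read as a test. *Slc4a1* and *Epb4.2* have the largest changes in each of the 4, upwards in 3 of them and downwards in *Kdm1a* KD.

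For *Gfi1b* the 2 KD libraries did not resemble each other. *Slc4a1* had no count in either control, 613 counts (32.7 CPM) in the library labelled KD replicate 1 and 8 counts (0.680 CPM) in KD replicate 2, which is at least 108-fold and at least 2.25-fold above the level of 3 counts in the shallower control (0.302 CPM). *Epb4.2* was at 0.823 and 0.202 CPM in the controls, 66.4 in replicate 1 and 2.21 in replicate 2. *Tmod1* (4.04 and 11.1 CPM in the controls) stood at 78.6 and 4.67, *Ank1* (116 and 106) at 425 and 111, and *Epb4.9* (35.3 and 39.6) at 115 and 35.3 CPM. The replicate with the higher *Gfi1b* level carried the high values, and its summed erythroid markers were at 3641 CPM against 1395 CPM in the other replicate and 1341 and 1459 CPM in the controls. Its summed megakaryocyte markers were likewise at 894 CPM, against 176 CPM in the other replicate and 223 and 287 CPM in the controls, and the part of either list in the values was not tested.

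Neither *Epb4.1* (317 and 302 CPM against 490.1 and 316) nor *Add2* (121 and 218 against 278 and 199.98) had KD libraries that both lay outside the control range. *Add1* (134 and 147 against 317 and 182 CPM) and *Add3* (208 and 211 against 251 and 286 CPM) were higher in both KD libraries, as were 19.7% of the genes tested. No gene of the 11190 tested was called by edgeR (0% in either direction), none of the 8 tested among the 9 included, while 784 genes and 2 of the 8 (*Add1*, and *Epb4.2*, which passed the filter through the KD libraries) had an unadjusted p under 0.05. DESeq2 called 53 genes raised and 6 lowered, none of them among the 9. *Slc4a1* did not pass the filter on low counts. Without KD replicate 2, 7 of these 8 were called raised in the remaining library, the one that goes against its label, where 14.6% of 11802 genes were called raised. That library was assumed to vary like the controls. With no filter on low counts 5 of the 8 were called raised, against 2.27% of 17067 genes. *Slc4a1* was called in both of these fits too, but it had no count in the controls and entered through the 613 counts of that library, or for want of a filter, so that it is left out of these numbers.

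The effects of the shRNA KDs were then compared with each other in 3 pairs, each against its own controls, in 1 fit over 13165 genes. The rise in *Cbfa2t3* KD was smaller than that in *Irf2bp2* KD for *Epb4.9* (log2 difference -1.48 ± 0.15, adjusted p = 2.4e-05), *Ank1* (-0.80 ± 0.12, adjusted p = 0.000352) and *Tmod1* (-0.63 ± 0.12, adjusted p = 0.00251), and larger for *Add2* (1.03 ± 0.10, adjusted p = 1.76e-05), where 6.63% of all genes were lower and 7.91% higher. For *Slc4a1* and *Epb4.2* the differences of -1.21 ± 0.63 and -0.55 ± 0.26 did not pass (adjusted p of 0.178 and 0.135), and the spread between the hairpins is part of these errors. *Epb4.1*, *Add1* and *Add3* did not pass both limits either (-0.35, -0.37 and 0.36).

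Against *Kdm1a* KD, the same 8 genes differed in both remaining pairs, with *Add1* not passing in either (adjusted p of 0.161 and 0.66). In *Cbfa2t3* KD 7 genes were higher relative to *Kdm1a* KD, from 0.65 ± 0.11 for *Epb4.1* to 6.93 ± 0.95 for *Slc4a1*, and in *Irf2bp2* KD 7 were higher, from 0.61 ± 0.12 for *Add2* to 8.14 ± 0.96 for *Slc4a1*. *Add3* was lower in both (-1.22 ± 0.15 and -1.58 ± 0.16). Of all genes, 10.8% were higher and 12.4% lower in the first pair and 14.8% and 16.1% in the second. These 2 pairs share the *Kdm1a* libraries.

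*Add2* and *Add3* were compared with each other per length, in the authors' RPKM. The share of *Add2* in the sum of both was 65.6 and 66.6% in the *Cbfa2t3* controls and 81.8 to 84.2% in the KD, where *Add2* RPKM was 132 to 151 against 71.8 and 72.8 in the controls. In *Irf2bp2* KD the share was 78.7 and 80.4% against 70.1 and 72.6%, the RPKM of *Add3* being lower (25.1 and 23.4 against 39.6 and 39.8). In *Kdm1a* KD the share was 50.5 and 49.6% against 74.2%. In the first 2 KDs the balance moved towards the β-adducin of the mature red cell and in *Kdm1a* KD towards γ-adducin. Taken from CPM in place of RPKM, the shares lay on the same sides, at 80.2 to 83.4% against 63.5 and 64.5% in *Cbfa2t3* KD, 76.2 and 78.1% against 67.5 and 69.8% in *Irf2bp2* KD and 47.5 and 46.7% against 72.5% in *Kdm1a* KD.

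In induction the share of *Add2* depended on the unit. In RPKM it stood at 69.9 and 73.2% in non-induced and 51.0 and 66.3% in induced cells, the induced replicates lying apart, as the RPKM of *Add3* was 64.0 in one and 28.8 in the other. Taken from CPM it was 70.2 and 73.3% in non-induced and 54.7 and 71.1% in induced cells, so that the groups overlapped. The length of *Add2* implied by its counts and RPKM, relative to the *Cbfa2t3* controls, was 1.11 and 1.08 in non-induced and 1.24 and 1.36 in induced cells. In the *Gfi1b* table the controls themselves stood at 37.5 and 51.5% and the libraries labelled KD at 50.5 and 41.8%. Libraries of different tables were scaled separately, which does not enter a share within a library.

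**Figure D5:**
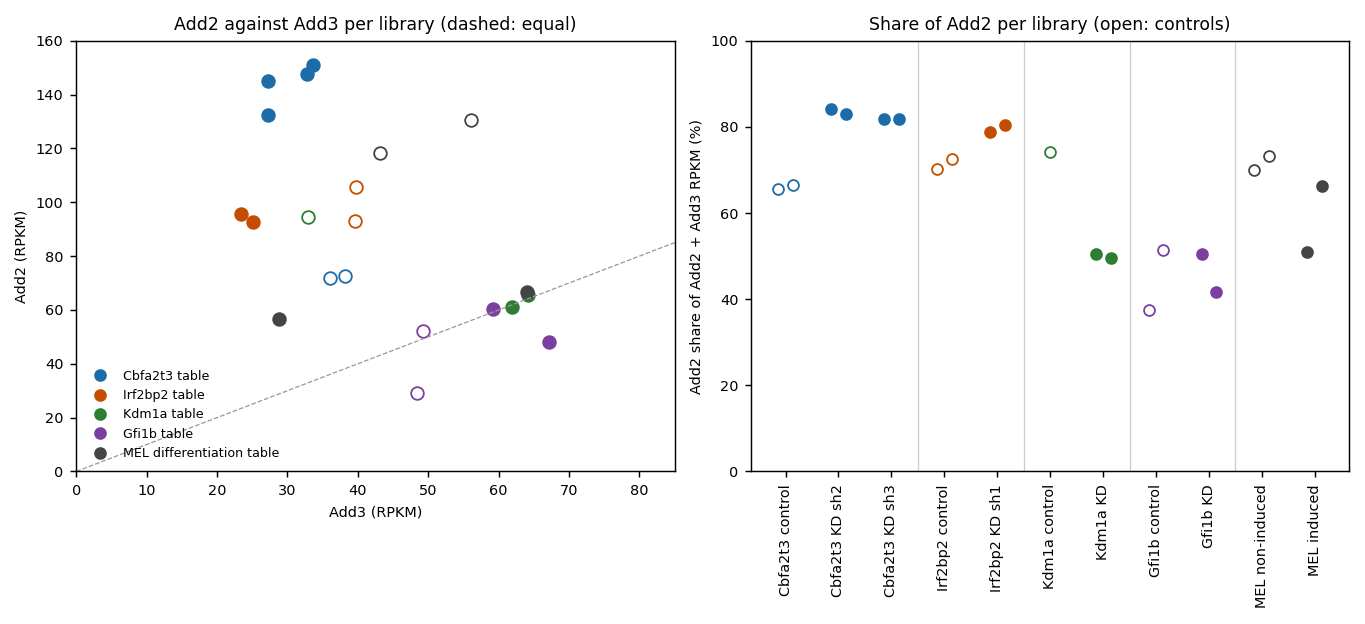
Left, *Add2* (y axis) against *Add3* (x axis) in RPKM in each of the 21 libraries, open for controls. Right, the share of *Add2* in the sum of *Add2* and *Add3* RPKM by group. The 4 *Cbfa2t3* KD libraries sit at 81.8 to 84.2% and the 2 *Kdm1a* KD libraries at 50.5 and 49.6%.

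Set in order of their RPKM, the 9 genes kept the same lower end in every control group, *Slc4a1* lowest and *Epb4.2* next. In the *Cbfa2t3* controls the mean levels were 72.3 RPKM for *Add2*, 61.3 for *Epb4.1*, 42.3 for *Ank1*, 39.7 for *Add1*, 37.1 for *Add3*, 25.6 for *Epb4.9*, 12.9 for *Tmod1*, 2.76 for *Epb4.2* and 0.713 for *Slc4a1*, and no neighbours in this order overlapped.

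After induction the order changed. *Epb4.1* led with 131 RPKM, followed by *Add1* with 93.8, and *Tmod1* (77.9), *Ank1* (65.3), *Add2* (61.7), *Add3* (46.4), *Epb4.9* (32.6) and *Epb4.2* (28.2) formed a run in which each overlapped the next, with *Slc4a1* still lowest at 18.0 RPKM. In *Irf2bp2* KD *Slc4a1* had 26.8 RPKM, a range that overlapped that of *Add3* (24.2) and lay above *Epb4.2* (18.8), while *Epb4.1* (96.3) and *Add2* (94.3) overlapped at the top. In *Kdm1a* KD *Add2* (63.2) and *Add3* (63.0) were indistinguishable at the top and *Epb4.2* and *Slc4a1* were at 0.353 and 0.0982 RPKM.

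The other proteins of the red cell membrane and skeleton, 16 genes in all that include β-spectrin and the Rh proteins, moved as follows. In *Cbfa2t3* KD 8 of the 16 rose and none fell (2.99% and 2.75% of all genes), among them *Gypc* (glycophorin C, log2 change 1.06) and β-spectrin (*Spnb1*, listed as *Sptb*, 0.86), with a median of 0.46. In *Irf2bp2* KD 7 rose (10.1% of all genes), among them *Rhd* (1.82) and *Spnb1* (1.43), and the glucose transporter gene *Slc2a1* fell (-0.95, 12.5% of all genes fell), with a median of 0.47. In *Kdm1a* KD 1 rose (12.4% of all genes) and 7 fell (10.1%), led by *Slc2a1* (-2.18) and the Rh genes *Rhag* (-1.97) and *Rhd* (-1.77), with a median of -0.43.

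In induction 10 of the 16 rose (12.4% of all genes), among them *Rhd* (4.39) and *Stom* (stomatin, 2.51), and *Slc2a1* fell (-2.43), with a median of 1.17. None passed in the *Gfi1b* table, where 7 of the 16 had an unadjusted p under 0.05 in the test of edgeR, as had 784 of the 11190 genes tested. That table includes the library that goes against its label. The medians over all genes tested lay between -0.02 and 0.02 in these comparisons.

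The non-erythroid relatives of these proteins, such as brain spectrin, the other ankyrins and tropomodulins, were listed for comparison. Of 21 such genes 13 or 14 passed the filter in these tables. In *Cbfa2t3* KD 1 of 14 rose (2.99% of all genes), *Tgm2*, which encodes a transglutaminase related to protein 4.2 (0.91), and in *Irf2bp2* KD 3 of 13 fell (12.5% of all genes), *Spna2* (non-erythroid α-spectrin, -0.84), *Ank3* (-0.70) and *Epb4.1l2* (-0.53). In *Kdm1a* KD *Epb4.1l4a* passed the filter through a KD library and is left out. Of the other 13, 4 rose (12.4% of all genes), led by *Spna2* (1.46), *Tmod4* (0.96) and *Ank2* (0.55), and *Slc4a7* fell (-0.56). In induction *Tgm2* rose (1.46) and 4 of 13 fell (14.8% of all genes), led by *Ank3* (-2.70), *Spna2* (-1.69) and *Spnb2* (non-erythroid β-spectrin, -1.30). Their medians were -0.06, -0.23, 0.01 and -0.15, and none passed between the hairpins or in the *Gfi1b* table.

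Over the 21 libraries, each taken relative to the control mean of its table, the genes whose log2 CPM went most closely with *Slc4a1* among 11054 genes were *Fam210b*, *Smox*, *Abcg4* and *Gtpbp1* (Pearson's r of 0.97 each) and *Ppp2r5b* (0.96). With *Epb4.2* they were *Cldn13* (0.97), *Grap2* and *Katnal1* (0.96 each), *Pkhd1l1* and *Fads3* (0.95 each). The libraries share treatments and the line, so these values describe likeness and carry no p.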

How the data were processed

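The data are 21 RNA-Seq libraries of MEL cells in 5 tables and 1 list of ETO2 and IRF2BP2 sites. RNA-Seq reads were mapped by the authors to mm9 with Tophat2, and they deposited raw read counts and RPKM values per UCSC RefSeq gene, made with rpkmforgenes. The tables also hold the authors' DESeq2 comparisons, which are not used here. Sites were called by the authors with several peak callers against IgG and combined around their centres, and for each site the deposited list holds a fold enrichment over IgG and its adjusted p-value. The class codes of the sites were read from the sizes of the classes. Another 4 columns of the list, which could not be matched to 1 library each, are not used here.

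Tests on the counts used edgeR 4.0.16 in R 4.3.3 (TMM, filterByExpr, glmQLFit and glmQLFTest), each table by itself and with sh2 and sh3 as 1 KD group, and p-values were adjusted over all genes of a table by the Benjamini-Hochberg method. The limits for a call were those of the study, an adjusted p of at most 0.05 together with a log2 fold change of at least 0.5 in size. The SE of a log2 change is its size divided by the root of the F statistic. The fits were tested on simulated counts. KD effects were compared in 1 joint fit of the 3 shRNA tables. Levels of different genes were compared in RPKM, and a fold against a group with no counts was taken over a floor of 3 counts. The range of total counts per library, which set this floor, is given in the report, and intervals for counting error alone are not used.

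Sites were assigned in Python 3.11.15 with pandas 2.3.3 to the single nearest TSS of a protein-coding GENCODE gene of mm9 within 1 Mb, and sequences were read with pysam 0.24.0 from the same build. Figures were drawn with matplotlib 3.10.9.

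The members and the gene lists were chosen with earlier results of these data known. The text names all 9 members, the depleted genes, from each list no more than the top 3 called genes in either direction (a few of these are not reported here), and the 5 genes most like *Slc4a1* and *Epb4.2* by Pearson's r. The alternatives were DESeq2 1.42.0, its size factors in edgeR, no filter, at least 10 counts in every library, no fold limit, the replicate number as a block, each hairpin alone, leaving out each library in turn, and for sites a limit of 100 kb, the sites at or above the median enrichment, and those overlapping a gene body with 10 kb on either side. Those for the differences between KDs, and a second spacing of the composite motif, were chosen after seeing the data.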

Additional observations from a re-analysis of the deposited data

Results flagged for a closer look

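The effects of 2 KDs on the same gene differed past both limits in 20 of the 27 comparisons made (9 genes in 3 pairs, a test of the difference itself with edgeR's quasi-likelihood test and Benjamini-Hochberg adjustment over 13165 genes). Values are log2 differences between the KD effects. Of all 13165 genes, 7.91% were called higher and 6.63% lower between *Cbfa2t3* KD and *Irf2bp2* KD. Between *Cbfa2t3* KD and *Kdm1a* KD it was 10.8% and 12.4%, and between *Irf2bp2* KD and *Kdm1a* KD 14.8% and 16.1%. The 3 pairs share libraries with each other.

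Between *Cbfa2t3* KD and *Irf2bp2* KD the difference was -1.48 for *Epb4.9*, -0.80 for *Ank1*, -0.63 for *Tmod1* and 1.03 for *Add2*. Between *Cbfa2t3* KD and *Kdm1a* KD it was 6.93 for *Slc4a1*, 5.71 for *Epb4.2*, 0.65 for *Epb4.1*, 1.35 for *Epb4.9*, 1.31 for *Ank1*, 2.15 for *Tmod1*, 1.64 for *Add2* and -1.22 for *Add3*. Between *Irf2bp2* KD and *Kdm1a* KD it was 8.14 for *Slc4a1*, 6.26 for *Epb4.2*, 1.00 for *Epb4.1*, 2.83 for *Epb4.9*, 2.11 for *Ank1*, 2.78 for *Tmod1*, 0.61 for *Add2* and -1.58 for *Add3*.

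The *Kdm1a* side of the last 2 pairs rests on 1 control library. *Epb4.9*, *Ank1*, *Tmod1* and *Add2* differed in all 3 pairs. Among these, *Add2* rose in *Cbfa2t3* KD, did not pass in *Irf2bp2* KD and fell in *Kdm1a* KD.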

How the results depend on the processing

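Of 942 values of single genes under an alternative, 898 kept their direction and their side of the limits, 10 that passed in neither fit changed sign, 15 were no longer called, 19 became called and none that was called changed sign. The 10 came from leaving out 1 library, and 3 of them were *Tmod1* (-0.67), *Epb4.9* (-0.09) and *Ank1* (-0.01) without *Gfi1b* KD replicate 1, the library that goes against its label. The counts of genes called under DESeq2, the size factors of DESeq2, at least 10 counts in every library and the replicate block (6 raised and 0 lowered in *Cbfa2t3* KD, 6 and 1 in *Irf2bp2* KD, 7 and 1 in induction with *Slc4a1* counted) did not change, except that with at least 10 counts in every library *Slc4a1* dropped out in induction and 6 were raised. The replicate numbers are not stated to mark a shared batch. A check of replicate pairing gave 1 correlation per pair of groups. It was 0.27 to 0.45 in the *Cbfa2t3* table, 0.05 in that of *Irf2bp2*, 0.03 in that of *Gfi1b* and 0.23 in induction. These are not correlations of whole libraries. The log2 CPM of control replicate 1 had a Pearson's r of 0.985 with sh2 replicate 1 in the *Cbfa2t3* table. It was 0.955 between control replicate 1 and sh1 replicate 1 in that of *Irf2bp2*. No paired analysis was possible for *Kdm1a* because it has 1 control, which also could not be left out, and with 1 KD library left out no residual degrees of freedom remained. Leaving out 1 library in turn gave 3 to 6 genes raised in *Cbfa2t3* KD (3 without control replicate 1), 0 to 8 raised in *Gfi1b* KD (8 without KD replicate 2, which rest on the library that goes against its label and include *Slc4a1*, without a count in the controls), 0 lowered in induction in all 4 cases and 1 to 2 higher with sh3 than with sh2 (1 without sh2 replicate 2). With no filter on low counts 6 genes were raised in *Gfi1b* KD, *Slc4a1* again included. With no fold limit 5 genes were higher and 1 lower with sh3, and the share of all genes without this limit is not given here. In that comparison 6 of the 9 genes, and 3557 of the 12537 genes tested, had an unadjusted p under 0.05 in the test of edgeR. At or above the median enrichment, 12 sites remained at the genes instead of 34. The cause of these changes was not tested. Libraries of the *Gfi1b* and induction tables hold fewer reads, and *Slc4a1* had 0 to 15 counts in their controls, or 0 to 0.747 CPM against 2.75 to 4.3 CPM in the shRNA controls.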

Other observations

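*Add2* counts and RPKM did not keep the same ratio between libraries. The gene length implied by them, relative to the *Cbfa2t3* controls, was 1.11 and 1.08 in non-induced and 1.24 and 1.36 in induced cells, and over the 21 libraries it ranged from 0.959 to 1.36, a 1.42-fold range that 1.18% of 9806 genes reached or exceeded. The other members had a range of at most 1.07-fold. The log2 change of *Add2* in induction was -0.75 between the mean CPM and -1.01 between the mean RPKM values.

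The 9 genes did not all go together over the libraries. Relative to the control mean of each table, *Add2* had a Pearson's r of 0.32 with *Epb4.2*, -0.36 with *Add1* and -0.31 with *Add3* over the 21 libraries, and *Add3* one between -0.58 (*Epb4.1*) and -0.52 (*Epb4.2*) with *Slc4a1*, *Epb4.2*, *Epb4.1*, *Epb4.9*, *Ank1* and *Tmod1*, values given as a description of libraries that share treatments.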
